A study of Mus musculus with 3 samples.

Results

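The genes described here encode the machinery that takes a cell from G1 into S phase: the D-type cyclins Ccnd1, Ccnd2 and Ccnd3, the kinases Cdk4, Cdk6 and Cdk2, the E-type cyclins Ccne1 and Ccne2, and the retinoblastoma family members Rb1 and Rbl1. They were taken by gene symbol, as a set chosen with earlier results of these data known, and all 10 were found among the 33700 genes of the tables, each on a single protein-coding row. RNA was measured in splenic B cells of C57BL/6 mice that lacked the surface marker CD43, in 1 library for each treatment. The treated cultures received JQ1+ at 80 nM, an inhibitor of the BET bromodomain proteins that read acetylated chromatin, or flavopiridol at 30 nM, an inhibitor of cyclin-dependent kinases. The control culture received the solvent DMSO. All 3 cultures were also given lipopolysaccharide (LPS) and interleukin-4 (IL-4), which drive B cells to divide and to switch antibody class, and all were kept for 3 days. The labels do not say how many mice were used, their age, or whether cells were pooled, and the culture label of the drug-treated samples repeats the DMSO wording.

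In a resting B cell the pocket proteins, of which Rb1 encodes the best known, hold E2F transcription factors inactive. Mitogens raise the D-type cyclins, which pair with Cdk4 or Cdk6 and begin to phosphorylate the pocket proteins. The E-type cyclins with Cdk2 complete this step. The released E2F factors switch on the genes of DNA synthesis, and also Ccne1, Ccne2 and Rbl1. Cyclin D2 and cyclin D3 are the D-type cyclins that mature B cells are known to use. Flavopiridol inhibits the Cdk2, Cdk4 and Cdk6 proteins themselves as well as Cdk9, so for that drug the kinase transcripts described here are those of proteins it can block.

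Summed counts were 51247080 in the JQ1+ library, 50184508 in the flavopiridol library and 59786847 in the DMSO library. Levels are given in RPKM as deposited, a read number per kilobase of gene that is also relative to the depth of the library. Since each treatment has 1 library, differences could not be set against a spread between replicates, and p-values are left out. The intervals are 95% intervals that cover counting error only, and they are wider than the raw counts would give because the counts summed to about 2.83 times the total behind the RPKM and were divided by that. The words rose and fell are kept for genes that differed by 2-fold or more, a log2 change of 1 after adding 1 RPKM to each level. This was applied to the 14790 genes that averaged 1 RPKM or more over the 3 libraries, and all 10 genes passed that minimum. Because RPKM is relative to depth, a change common to all transcripts would not show, and in a bulk sample fewer cycling cells and less RNA per cell cannot be told apart. The B cell markers were high: the 6 listed summed to 4707 RPKM in JQ1+, 3900.5 in flavopiridol and 3940.4 in DMSO. T cell markers summed to at most 4.77 RPKM, NK cell markers to at most 3.00, stromal markers to at most 0.339 and erythroid markers to at most 0.227, and Ncr1 of the NK list was at 0 in every library. The 5 myeloid markers in the tables summed to 7.48 RPKM in JQ1+, 14.0 in flavopiridol and 7.88 in DMSO, and the 3 endothelial markers to 5.56, 12.2 and 22.5. Of the myeloid markers Emr1 stood at 0.801 RPKM in JQ1+, 9.47 in flavopiridol and 0.922 in DMSO. In the same order Csf1r stood at 4.03, 3.95 and 6.41 RPKM and Lyz2 at 1.94, 0.044 and 0.181. Itgam and Cd14 did not exceed 0.503 RPKM. Of the endothelial markers Pecam1 stood at 5.18, 11.9 and 21.7 RPKM, while Cdh5 did not exceed 0.721 and Kdr did not exceed 0.088. The part of these markers in the results below was not tested.

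No member passed the 2-fold rule in any comparison. That was 0 of 10 with JQ1+, where 7.27% of all measured genes were called against DMSO, and 0 of 10 with flavopiridol, where 6.43% were. Between JQ1+ and flavopiridol it was again 0 of 10, against 8.92% of all genes. The results below are therefore differences smaller than 2-fold, given with the counting intervals that bound them. At a lower size of 0.58 on the log2 scale, about 1.5-fold, 1 member was higher in JQ1+ than in DMSO (Rb1), where 6.2% of all genes were higher. At that size 4 were higher in flavopiridol than in DMSO (Cdk6, Ccne1, Ccne2 and Rb1), against 12.5% of all genes. Of these Rb1 passed narrowly, at 0.583, and would not pass an exact 1.5-fold on that measure. Of the 10, 0 were lower than DMSO at that size in JQ1+, where 12.9% of all genes were, and 0 in flavopiridol, where 7.7% were. These counts depend on the scale: after rescaling each library by the median of ratios over genes, Ccnd3 passed that size on the lower side with flavopiridol (-0.64), and of the 4 higher genes only Cdk6 (0.64) still did.

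**Figure D1:**
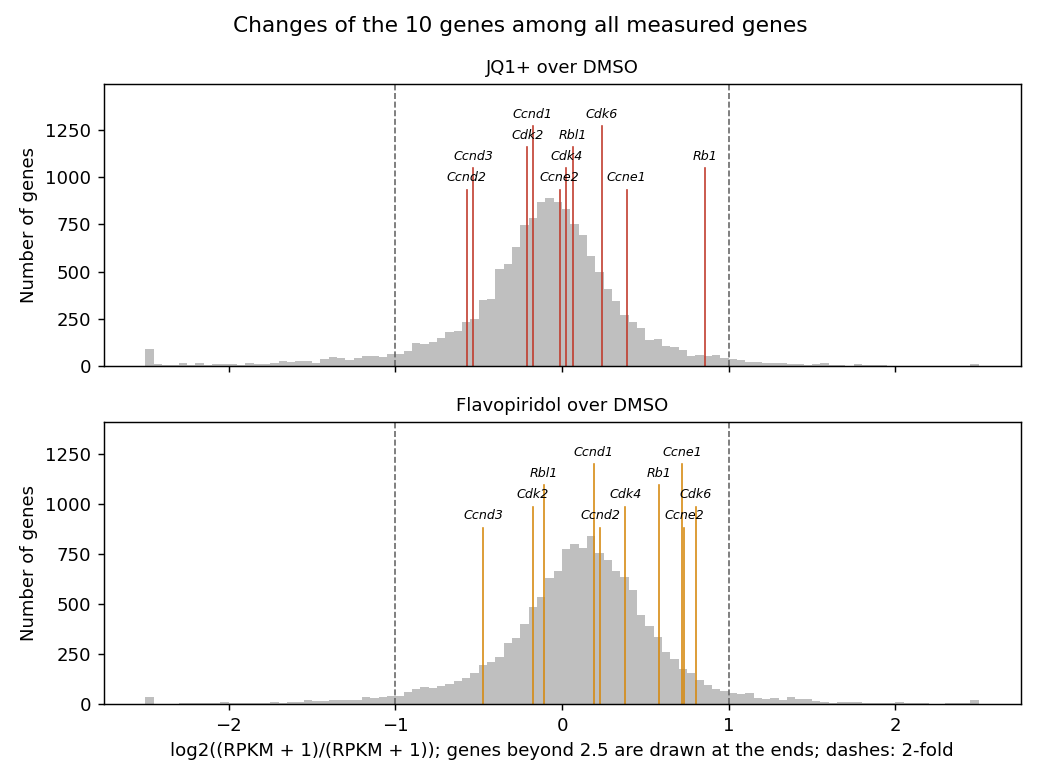
Grey bars count the 14790 measured genes by their log2 change with a pseudocount of 1 RPKM (x axis), for JQ1+ over DMSO above and flavopiridol over DMSO below. Coloured lines mark the 10 genes, all of which lie between the dashed lines at 2-fold, from -0.57 to 0.86 with JQ1+ and from -0.47 to 0.80 with flavopiridol.

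The D-type cyclins are the first to respond to mitogens. Ccnd2 was the most abundant of them in every library. It stood at 183 RPKM in JQ1+, 320.1 in flavopiridol and 273 in DMSO. The JQ1+ library was the lowest of the 3 and the flavopiridol library the highest, with no overlap between their counting intervals. In JQ1+ the level was 0.672 times that in DMSO (interval 0.652 to 0.692), a log2 change of -0.57, just outside the 1.5-fold size, and 19.4% of all measured genes changed at least as much. In flavopiridol it was 1.17 times DMSO (interval 1.14 to 1.20), a log2 change of 0.23, but rescaling each library by the median of ratios over genes left 0.06. Set directly against flavopiridol, Ccnd2 in JQ1+ was 0.573 times as high (interval 0.556 to 0.591), the widest gap between the drugs among the 10 genes as deposited. After rescaling, the log2 difference between the drugs was -0.52 for Ccnd2 and 0.54 for Rb1.

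Ccnd3, the D-type cyclin required for the expansion of germinal centre and precursor B cells in the mouse, was lower in both drug-treated libraries. It stood at 58.7 RPKM in JQ1+, 61.1 in flavopiridol and 85.3 in DMSO. The 2 drug values overlapped within counting error, and DMSO lay above both. The ratio to DMSO was 0.688 in JQ1+ (interval 0.632 to 0.749) and 0.717 in flavopiridol (interval 0.658 to 0.782). The log2 change with flavopiridol was -0.47 as deposited and -0.64 after rescaling. Both ratios are set against the same DMSO library, so they are not independent, here and for every other gene. A pseudogene copy, Ccnd3-ps, had 4.22 RPKM in JQ1+, 5.29 in flavopiridol and 10.4 in DMSO. Reads that match both could have been split between them, which makes the Ccnd3 values uncertain to that extent. In GENCODE M21, 4.11% of the exon length of Ccnd3 is shared with Bysl on the opposite strand. Bysl had 42.6 RPKM in JQ1+, 70.3 in flavopiridol and 54.2 in DMSO, and the part of its reads in the Ccnd3 values was not tested.

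Ccnd1, the D-type cyclin used mainly outside the lymphoid lineage, was the least abundant of the 10. It stood at 1.55 RPKM in JQ1+, 2.29 in flavopiridol and 1.88 in DMSO, from 112, 151 and 152 deposited counts. No difference was detectable at this depth: the ratio to DMSO was 0.823 in JQ1+ (interval 0.536 to 1.27) and 1.21 in flavopiridol (interval 0.808 to 1.79). Ccnd1 shares 23.4% of its exon length, in GENCODE M21, with Oraov1 on the opposite strand, which had 5.90 RPKM in JQ1+, 6.79 in flavopiridol and 6.06 in DMSO. Whether counting used strand is not given in the sources used here, so part of the Ccnd1 reads may belong to Oraov1.

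Added over the 3 D-type cyclins, the level was 244 RPKM in JQ1+, 383 in flavopiridol and 360.3 in DMSO. Ccnd2 made up 75.3% of that sum in JQ1+, 83.5% in flavopiridol and 75.8% in DMSO. Per length, Ccnd2 was 3.13 times as high as Ccnd3 in JQ1+ (interval 2.91 to 3.36), 5.24 times in flavopiridol (interval 4.88 to 5.62) and 3.20 times in DMSO (interval 3.03 to 3.39). The proportion of the 2 cyclins in JQ1+ overlapped that in DMSO within counting error, both being lower in JQ1+, while in flavopiridol the proportion lay further towards Ccnd2. Ccnd1 never exceeded 0.636% of the sum. Shares and ratios between genes rest on the gene lengths behind the deposited RPKM. For 5 members the length implied by count and RPKM in the JQ1+ library was shorter than the GENCODE M21 exon length: 3834 against 4709 bases for Ccnd1, 5701 against 9409 for Ccnd2, 2255 against 8775 for Ccnd3, 3736 against 13989 for Cdk6 and 2432 against 6219 for Cdk2. For the other 5 it was within 1 base of that length.

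**Figure D2:**
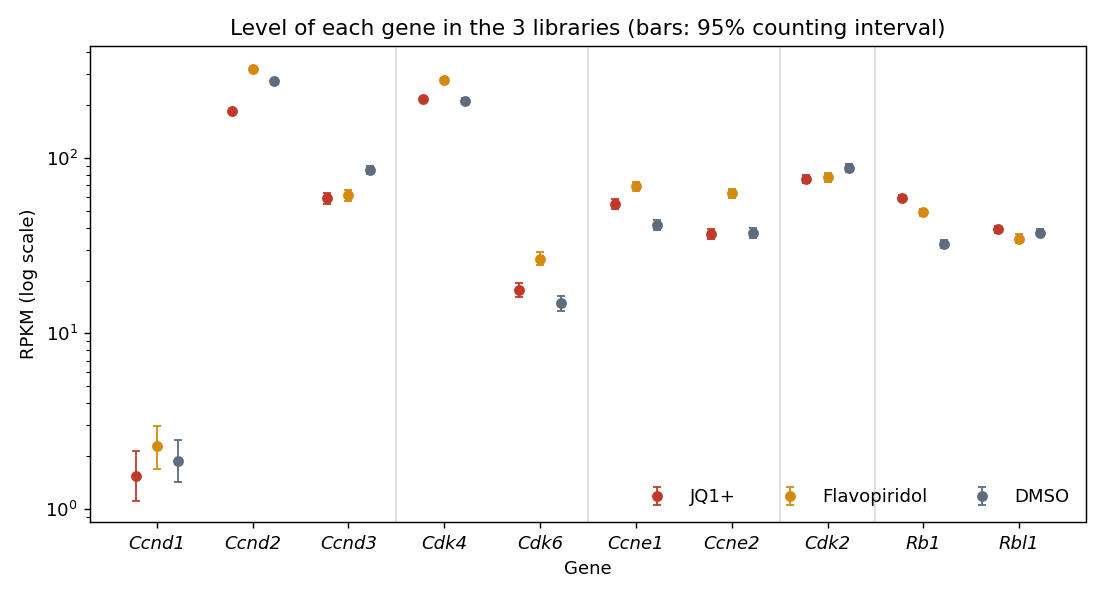
RPKM on a log axis for each gene, with 1 point per library (JQ1+, flavopiridol, DMSO from left to right) and bars for the 95% counting interval. Ccnd2 and Cdk4 lie above 180 RPKM in every library, Ccnd1 lies between 1.55 and 2.29 RPKM, and for Rb1 and Ccne1 both drug libraries lie above DMSO with intervals that do not overlap it.

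The partners of the D-type cyclins are Cdk4 and Cdk6. The sequences just upstream of these 2 kinase genes are shown because they hold the E-box CACGTG, the element bound by MYC and MAX. In the RefSeq table of build GRCm38.p6, 6 of the 10 members (Ccnd3, Cdk4, Cdk6, Cdk2, Ccne1 and Rbl1) had an entry. The 250 bases before the start are printed 5′ to 3′ on the strand of the gene, with CACGTG, which reads the same on both strands, in capitals.
Cdk4, chr10:127063285-127063534, plus strand: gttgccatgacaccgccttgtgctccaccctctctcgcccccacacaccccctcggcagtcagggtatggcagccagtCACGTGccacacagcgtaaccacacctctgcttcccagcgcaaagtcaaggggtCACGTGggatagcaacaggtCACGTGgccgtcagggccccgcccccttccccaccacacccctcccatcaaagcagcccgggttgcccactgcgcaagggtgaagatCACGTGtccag
Cdk6, chr5:3343643-3343892, plus strand: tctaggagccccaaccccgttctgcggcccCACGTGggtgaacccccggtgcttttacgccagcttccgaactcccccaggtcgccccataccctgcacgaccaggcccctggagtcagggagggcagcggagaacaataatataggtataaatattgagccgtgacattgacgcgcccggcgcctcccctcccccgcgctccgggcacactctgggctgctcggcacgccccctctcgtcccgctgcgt
Cdk4 has 4 copies of CACGTG in this window and Cdk6 has 1. Of 32851 promoter entries in the table, 6.02% held at least 1 copy and 7 entries held at least 4. A match describes the letters in this window and not a bound site.

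Cdk4 stood at 216 RPKM in JQ1+, 276 in flavopiridol and 212 in DMSO. JQ1+ and DMSO were alike within counting error, with a ratio of 1.02 (interval 0.978 to 1.06), and flavopiridol was the highest at 1.30 times DMSO (interval 1.25 to 1.35). The log2 change with flavopiridol was 0.38 as deposited and 0.21 after rescaling by the median of ratios. Myc, whose product binds E-boxes, fell to 76.2 RPKM in JQ1+, against 194 in DMSO, a log2 change of -1.34, and stood at 243 RPKM in flavopiridol. A link between the level of Myc and that of Cdk4 or Cdk6 was not tested. In GENCODE M21, 19.7% of the exon length of Cdk4 is shared with Tspan31 on the opposite strand, which had 180 RPKM in JQ1+, 126 in flavopiridol and 193 in DMSO. The part of Tspan31 reads in the Cdk4 values was not tested.

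Cdk6 was the less abundant of the pair. It stood at 17.7 RPKM in JQ1+, 26.7 in flavopiridol and 14.9 in DMSO. Flavopiridol was the highest library and its interval overlapped neither of the others. The ratio to DMSO was 1.79 in flavopiridol (interval 1.58 to 2.04), a log2 change of 0.80, which 10.6% of all measured genes equalled or exceeded in size. As deposited this was the largest of the 10 genes with that drug, whereas after rescaling it was 0.64, level with the -0.64 of Ccnd3. In JQ1+ it was 1.19 (interval 1.04 to 1.36). The upper end of the flavopiridol interval passes 2-fold, so counting error alone leaves it unsettled on which side of 2-fold Cdk6 lies. Per length, Cdk4 was 12.2 times as high as Cdk6 in JQ1+ (interval 11.0 to 13.5), 10.3 times in flavopiridol (interval 9.50 to 11.3) and 14.2 times in DMSO (interval 12.9 to 15.8).

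**Figure D3:**
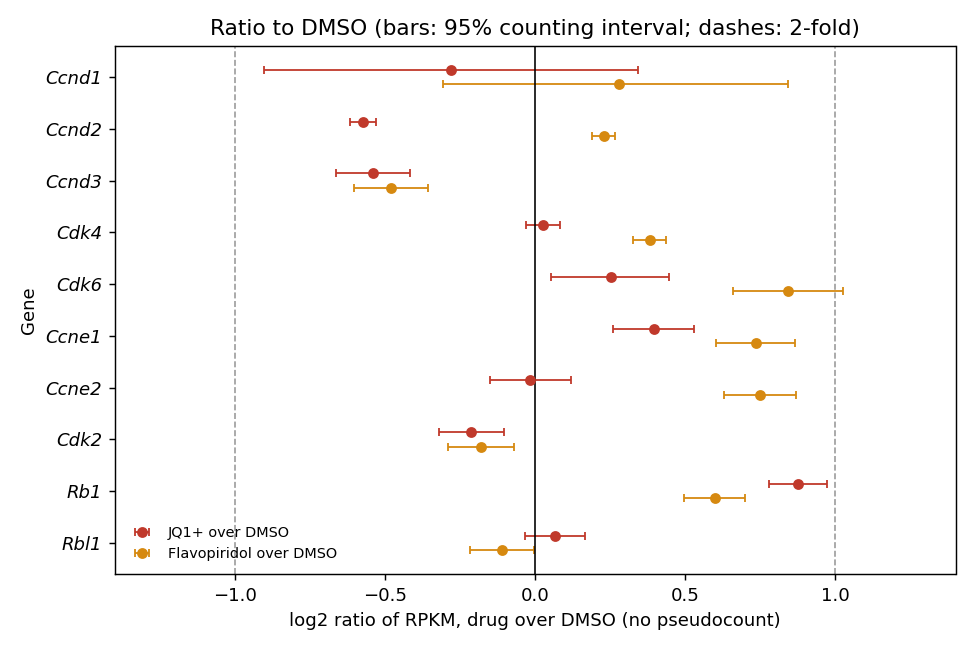
The log2 ratio of plain RPKM over DMSO for each gene, JQ1+ above flavopiridol in each pair, with bars for the 95% counting interval and dashes at 2-fold. The intervals of Ccnd3, Cdk6, Ccne1, Cdk2 and Rb1 each lie on the same side of 0 with both drugs, and those of Ccnd2 lie on opposite sides. Those of Cdk4, Ccne2 and Rbl1 leave 0 with flavopiridol and not with JQ1+, and those of Ccnd1 include 0 with both.

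The E-type cyclins act after the D-type cyclins and are themselves E2F targets. Ccne1 stood at 54.4 RPKM in JQ1+, 68.9 in flavopiridol and 41.4 in DMSO. The 3 counting intervals did not overlap, with both drug libraries above DMSO. The ratio to DMSO was 1.31 in JQ1+ (interval 1.20 to 1.44) and 1.66 in flavopiridol (interval 1.52 to 1.82). Ccne2, the paralogue, stood at 36.9 RPKM in JQ1+, 62.7 in flavopiridol and 37.3 in DMSO. Here JQ1+ and DMSO overlapped, at a ratio of 0.989 (interval 0.901 to 1.09), and flavopiridol was 1.68 times DMSO (interval 1.55 to 1.83).

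The paralogues therefore stood higher in flavopiridol by like ratios, whereas in JQ1+ the ratios of Ccne1 and Ccne2 to DMSO had intervals that did not overlap. Per length, Ccne1 was 1.47 times Ccne2 in JQ1+ (interval 1.34 to 1.62), 1.10 times in flavopiridol (interval 1.01 to 1.19) and 1.11 times in DMSO (interval 1.01 to 1.22). Their sum was 91.3 RPKM in JQ1+, 131.6 in flavopiridol and 78.7 in DMSO. Ccne2 shares 17.4% of its exon length with Ints8 on the opposite strand in GENCODE M21, and Ints8 had 28.8 RPKM in JQ1+, 31.8 in flavopiridol and 25.4 in DMSO.

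Cdk2, the kinase that the E-type cyclins activate, varied little. It stood at 75.8 RPKM in JQ1+, 77.5 in flavopiridol and 87.8 in DMSO, and the 2 drug libraries overlapped below DMSO. The ratio to DMSO was 0.863 in JQ1+ (interval 0.800 to 0.930) and 0.883 in flavopiridol (interval 0.818 to 0.953). Of all measured genes, 56.0% changed by at least as much with JQ1+ and 66.8% with flavopiridol. Among the 3 kinases, Cdk4 held 69.8% of the summed RPKM in JQ1+, 72.6% in flavopiridol and 67.4% in DMSO, and Cdk2 held 24.5%, 20.4% and 27.9%.

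The pocket proteins restrain E2F. Rb1, the retinoblastoma gene, stood at 59.3 RPKM in JQ1+, 48.9 in flavopiridol and 32.3 in DMSO. The 3 counting intervals did not overlap, and both drug libraries lay above the DMSO library, which the 2 ratios below share. In JQ1+ the level was 1.83 times DMSO (interval 1.72 to 1.96), a log2 change of 0.86 that 1481 of the 14790 measured genes equalled or exceeded in size. In flavopiridol it was 1.51 times DMSO (interval 1.41 to 1.62), a log2 change of 0.58 that was 0.41 after rescaling and so below the 1.5-fold size. Rcbtb2 and Lpar6, which share 8.11% and 6.78% of the Rb1 exon length on the opposite strand in GENCODE M21, each stood between 7.87 and 15.5 RPKM, and reads from them could enter the Rb1 value. Rcbtb2 stood at 11.5 RPKM in JQ1+, 15.3 in flavopiridol and 7.87 in DMSO, and Lpar6 at 11.3, 15.5 and 9.09. The part of such reads in the Rb1 values was not tested.

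Rbl1, which encodes the pocket protein p107 and is itself a textbook E2F target, differed less. The upstream sequence of Rbl1 is shown with that of Cdk2 because these were the 2 members in which an E2F motif was found. The letters searched, on both strands, were TTTCGCGC, TTTGGCGC, TTTCCCGC and TTTGGCGG, and the match is in capitals. Of all promoter entries 1.96% held at least 1 of them, and no match was found upstream of Ccne1, Ccnd3, Cdk4 or Cdk6 in this window.
Rbl1, chr2:157204535-157204784, minus strand: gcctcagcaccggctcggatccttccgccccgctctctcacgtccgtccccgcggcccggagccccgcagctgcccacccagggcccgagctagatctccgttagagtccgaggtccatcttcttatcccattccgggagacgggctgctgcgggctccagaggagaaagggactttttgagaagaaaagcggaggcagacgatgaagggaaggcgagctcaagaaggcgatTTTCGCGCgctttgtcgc
Cdk2, chr10:128705052-128705301, minus strand: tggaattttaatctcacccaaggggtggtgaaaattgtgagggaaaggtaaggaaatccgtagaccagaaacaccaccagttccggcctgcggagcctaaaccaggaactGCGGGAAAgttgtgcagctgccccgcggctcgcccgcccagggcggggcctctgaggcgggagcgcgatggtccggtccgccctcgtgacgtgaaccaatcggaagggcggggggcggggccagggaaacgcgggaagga
The Rbl1 match is TTTCGCGC on the strand of the gene, and that of Cdk2 is TTTCCCGC on the opposite strand.

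Rbl1 stood at 39.2 RPKM in JQ1+, 34.6 in flavopiridol and 37.4 in DMSO. The ratio to DMSO was 1.05 in JQ1+ (interval 0.976 to 1.12) and 0.926 in flavopiridol (interval 0.860 to 0.997). JQ1+ and DMSO overlapped within counting error. Per length, Rb1 stood above Rbl1 in both drug libraries and below it in DMSO: the ratio of Rb1 to Rbl1 was 1.51 in JQ1+ (interval 1.42 to 1.61), 1.41 in flavopiridol (interval 1.31 to 1.52) and 0.864 in DMSO (interval 0.805 to 0.927). This ratio is taken within a library and does not depend on the library total. The remaining pocket protein gene, Rbl2, which encodes p130 of quiescent cells, stood at 21.8 RPKM in JQ1+, 26.5 in flavopiridol and 23.3 in DMSO.

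**Figure D4:**
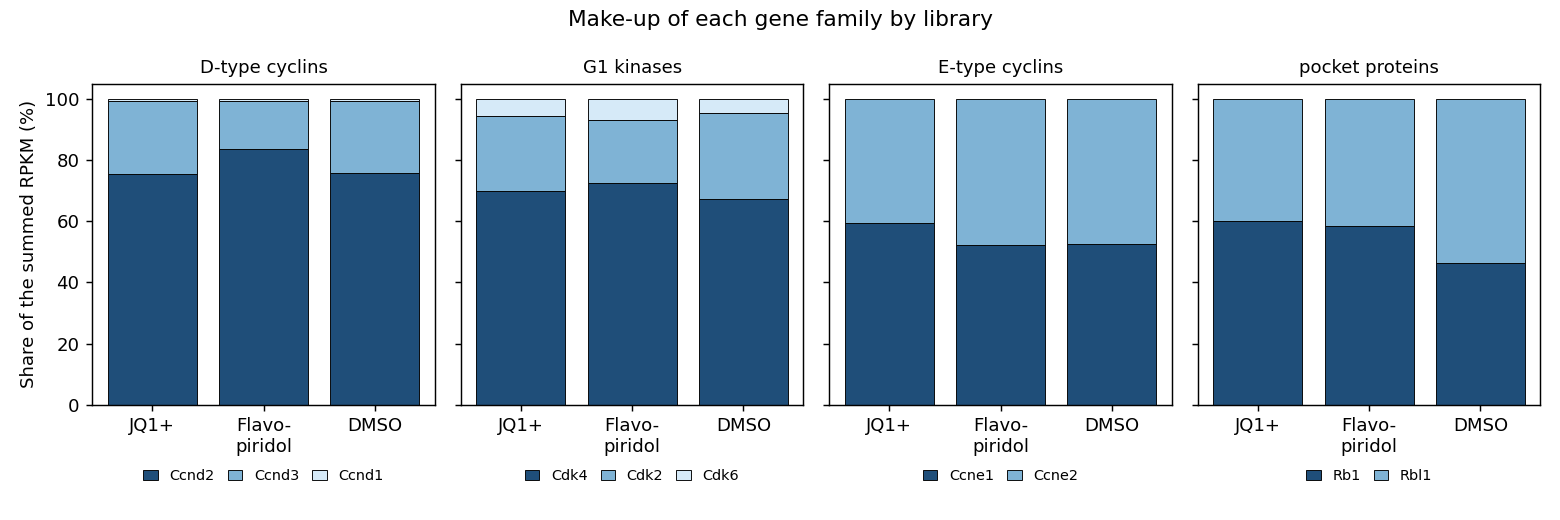
Stacked bars give the share (%) of the summed RPKM that each gene takes within its family, for JQ1+, flavopiridol and DMSO from left to right. Ccnd2 and Cdk4 are the leading genes in all libraries, and Rb1 takes 60.2% in JQ1+, 58.5% in flavopiridol and 46.3% in DMSO of the sum with Rbl1.

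In order of level, Cdk4 came first and Ccnd2 second in JQ1+, while Ccnd2 came first and Cdk4 second in flavopiridol and in DMSO. This order rests on the lengths behind the deposited RPKM, which for Ccnd2 was 5701 bases against 9409 in GENCODE M21. By deposited counts Ccnd2 led Cdk4 in every library, with 19713 against 13205 in JQ1+, 31316 against 15383 in flavopiridol and 32775 against 14484 in DMSO. Per length, Ccnd2 was 0.851 times Cdk4 in JQ1+ (interval 0.820 to 0.883), 1.16 times in flavopiridol (interval 1.12 to 1.20) and 1.29 times in DMSO (interval 1.25 to 1.33). Cdk2 came next in every library, but in DMSO its interval overlapped that of Ccnd3, the next gene. Among the middle genes the intervals of Rb1 and Ccnd3 and of Ccnd3 and Ccne1 overlapped in JQ1+, as did those of Rbl1 and Ccne2. In flavopiridol those of Ccne1 and Ccne2 and of Ccne2 and Ccnd3 overlapped, and in DMSO those of Ccne1 and Rbl1 and of Rbl1 and Ccne2. Cdk6 was ninth and Ccnd1 last in all 3 libraries.

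As a set, 5 of the 10 genes were above DMSO and 5 below with JQ1+, with a median log2 change of 0.01 beside -0.08 over all measured genes. With flavopiridol 7 were above and 3 below, with a median of 0.30 beside 0.13. The median size of the change was 0.22 with JQ1+ beside 0.25 over all genes, and 0.43 with flavopiridol beside 0.28. Rescaling each library by the median of ratios moved the median of all genes by 0.09 with JQ1+ and by -0.16 with flavopiridol, and by 0.25 between the drugs. It also moved the share of called genes that were lower, which was 44.8% as deposited and 61.2% rescaled with flavopiridol, 72.7% and 64.2% with JQ1+, and 77.0% and 53.0% between the drugs. Relative to the median of all genes, the log2 change was 0.94 for Rb1 and -0.49 for Ccnd2 with JQ1+. With flavopiridol it was 0.67 for Cdk6, 0.60 for Ccne2, 0.59 for Ccne1, 0.45 for Rb1 and -0.60 for Ccnd3 on the same footing.

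Between the drugs, 8 of the 10 genes were lower in JQ1+ than in flavopiridol, where 69.9% of all measured genes were. Relative to the median of all genes, 6 were lower. At the 1.5-fold size 2 genes were lower, Ccnd2 and Ccne2, where 21.2% of all genes were. After rescaling neither passed that size, at -0.52 for Ccnd2 and -0.48 for Ccne2. Ccne2 in JQ1+ was 0.589 times as high as in flavopiridol (interval 0.540 to 0.642). Rb1 went the other way, at 1.21 times flavopiridol (interval 1.14 to 1.29), as did Rbl1 at 1.13 times (interval 1.05 to 1.22). The drugs were given at different doses and are not related in structure.

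Genes around this machinery were set beside it in 8 lists holding 94 different genes, of which 91 were measured. With JQ1+ 1 of the 91 rose and 2 fell, where 1.98% of all measured genes rose and 5.29% fell. With flavopiridol 1 rose and 0 fell, where 3.55% of all genes rose and 2.88% fell. Of the 3 genes concerned, 2 encode inhibitors of the kinases. Cdkn2b, which encodes the p15 inhibitor of Cdk4 and Cdk6, rose to 19.8 RPKM in JQ1+ and to 19.5 in flavopiridol, against 7.47 in DMSO, by log2 changes of 1.30 and 1.28. Cdkn1a, the p21 gene, fell to 4.18 RPKM in JQ1+ and stood at 28.0 in flavopiridol, against 14.7 in DMSO. The other inhibitors measured, Cdkn1b, Cdkn2a and Cdkn2c, did not pass 2-fold, with log2 changes from 0.36 to 0.98 in JQ1+ and from -0.16 to 0.43 in flavopiridol. Of these Cdkn2a, named after its values were seen, was borderline: it stood at 19.3 RPKM in JQ1+, 11.4 in flavopiridol and 9.28 in DMSO, and its plain ratio of JQ1+ to DMSO was 2.07 (interval 1.57 to 2.74), with a log2 change of 0.98 once 1 RPKM was added. Cdkn1c was below the minimum of 1 RPKM.

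None of the 10 E2F and DP factor genes passed 2-fold with either drug. Their median log2 change was -0.005 with JQ1+ and 0.29 with flavopiridol. E2f2, an activator E2F, had the largest change in the list, standing at 72.2 RPKM in JQ1+, 44.2 in flavopiridol and 43.7 in DMSO. Of the 27 listed E2F target genes none passed 2-fold either. Of these, 22 were below DMSO with JQ1+ and 5 above, a median of -0.18, where 59.7% of all genes were below. With flavopiridol 5 were below and 22 above, a median of 0.23, where 36.2% of all genes were below. Relative to the median of all genes, 19 were below and 8 above with JQ1+, and 10 below and 17 above with flavopiridol. Tyms, the thymidylate synthase gene, had the largest change in this list, at 23.7 RPKM in JQ1+, 43.2 in flavopiridol and 40.1 in DMSO.

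The remaining lists held Myc and no other gene past 2-fold against DMSO. In the list of pocket protein partners and MuvB subunits, the core of the complex that pocket proteins form to silence cell cycle genes, the largest change was that of Mybl2, which is also in the E2F target list (-0.57 with JQ1+ and -0.05 with flavopiridol). In the kinase that activates other cyclin-dependent kinases, Cdk7 had 11.1 RPKM in JQ1+, 15.8 in flavopiridol and 12.8 in DMSO. The 3 subunits, Cdk7, Ccnh and Mnat1, all lay below DMSO with JQ1+ and above it with flavopiridol. Of all measured genes, 59.7% were below DMSO with JQ1+ and 36.2% with flavopiridol. The counting intervals of Ccnh with JQ1+ and of Mnat1 with flavopiridol included equality with DMSO. Relative to the median of all genes, those log2 changes were -0.006 and 0.007. Among genes that turn over or fold the cyclins and kinases, Fbxw7, whose product marks cyclin E for destruction, stood at 85.0 RPKM in JQ1+, 117 in flavopiridol and 141 in DMSO. Among later cyclins and kinases, Ccng1, a p53 target, stood at 241 RPKM in JQ1+, 537 in flavopiridol and 280.5 in DMSO. Ccna2, the S phase cyclin that follows cyclin E, stood at 211 RPKM in JQ1+, 234 in flavopiridol and 197 in DMSO. Cdk1, the mitotic kinase, varied between 73.4 and 80.0 RPKM. Cdk9, the target of flavopiridol in transcription, stood at 32.1 RPKM in JQ1+, 29.3 in flavopiridol and 35.2 in DMSO.

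**Figure D5:**
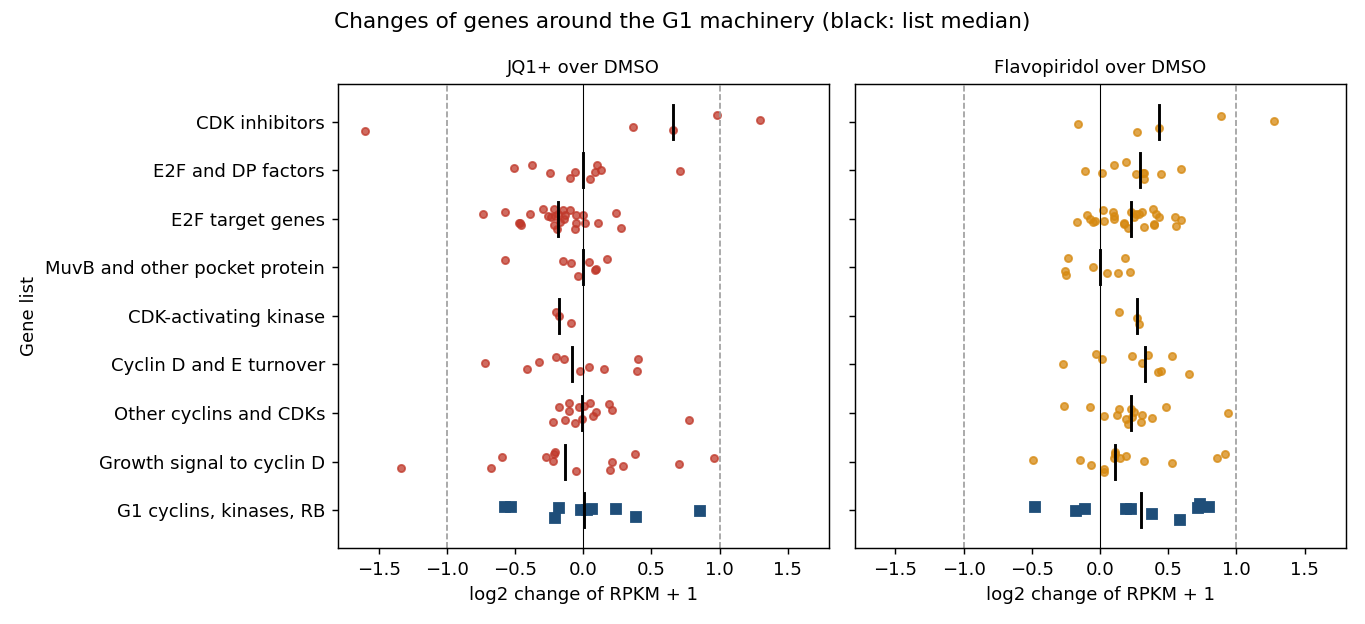
Each circle is the log2 change of RPKM + 1 of a gene in 1 of 8 lists, JQ1+ over DMSO on the left and flavopiridol over DMSO on the right, with the 10 genes of the G1 machinery as blue squares, list medians in black and dashes at 2-fold. With JQ1+ Cdkn1a (-1.60) and Myc (-1.34) lie beyond the dashes on the lower side and Cdkn2b (1.30) on the upper; with flavopiridol Cdkn2b alone (1.28) lies beyond them.

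The genes whose profile over the 3 libraries was most like that of Rb1 and Cdk6, the members with the largest changes as deposited, were found by the distance between centred log2(RPKM + 1) values. The search covered 9323 protein-coding genes averaging 5 RPKM or more. Nearest to Rb1 were Cd9, a tetraspanin (distance 0.04), Spty2d1 (0.05) and Mylpf (0.06). Nearest to Cdk6 were the histone chaperone gene Asf1a (0.01), the nucleoside diphosphate kinase gene Nme1 (0.02) and BC106179 (0.02). A profile over 3 libraries rests on 1 value from each, and the likeness describes these libraries only.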

How the data were processed

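Trizol RNA was depleted of ribosomal RNA and sequenced, 1 library for each treatment, per the labels' protocols. The authors deposited, for each gene, a raw count in whole numbers and an RPKM, per the file headers. The build mm9 is named in the submitters' processing notes; for the aligner, counter, annotation and strand use, names are not given in sources used here. GENCODE M21 (GRCm38) served by identifier for exon lengths and overlaps, and RefSeq (GRCm38.p6) for upstream sequences.

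Groups came from the treatment label. Of several rows for a symbol (94 symbols) the most abundant was kept. Changes were log2((RPKM + 1)/(RPKM + 1)), which understates those of low genes. The 95% intervals are exact, conditional binomial for ratios and Poisson for levels. They use counts divided by 2.83, the mean ratio of summed counts to the library total implied by count, RPKM and exon length. Ratio intervals were tried only on simulated Poisson counts with known totals. That trial could not test the divisor, the implied totals or spread between replicates. Summed counts were 50184508 to 59786847. No count model was used, for want of replicates. The members and the gene lists were chosen with earlier results of these data known. Named genes were the members, list genes past 2-fold against DMSO with either drug or else the most changed of a list, and Rbl2, Ccna2, Cdk1, Cdk9, Myc and Cdkn1a; Ccng1 is the most changed of its list. Overlapping genes were named for their position. Alternatives were other pseudocounts and minimums, rescaling by the median of ratios, CPM, a TPM scale, protein-coding genes alone and a 1.5-fold size. Python 3.11.15, numpy 2.4.6, pandas 2.3.3, scipy 1.17.1 and matplotlib 3.10.9 were used.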

Additional observations from a re-analysis of the deposited data

How the results depend on the processing

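No member passed 2-fold in any comparison under the alternative pseudocounts, minimums, scalings and gene types tried. At the size of 0.58, about 1.5-fold, 1 member was higher with JQ1+ and 4 with flavopiridol, where 6.2% and 12.5% of all genes were. Of the 4, Rb1 passed narrowly, at 0.583. In JQ1+ 2 members were lower than in flavopiridol, where 21.2% of all genes were. After rescaling by the median of ratios, the log2 changes with flavopiridol of Ccne1 (0.55), Ccne2 (0.56) and Rb1 (0.41) were below the 1.5-fold size, that of Cdk6 was 0.64 and that of Ccnd3 (-0.64) passed it on the lower side; between the drugs Ccnd2 (-0.52) and Ccne2 (-0.48) no longer passed it. Rb1 with JQ1+ ranged from 0.78 to 0.96. Of 30 member changes, 3 changed sign under some setting, each near 0 as deposited: Ccne2 with JQ1+ (up to 0.09), and Ccnd3 (up to 0.21) and Cdk2 (up to 0.24) between the drugs; the cause was not tested. Of the 91 measured genes of the surrounding lists, 1 was higher with JQ1+ as reported. That number was 2 with a pseudocount of 0.1 RPKM, 0 with 5 RPKM, 3 after rescaling and 2 on CPM. In the same order of settings, 503, 84, 388 and 165 of all 14790 measured genes were higher. With flavopiridol 0 list genes were higher with a pseudocount of 5 RPKM, where 139 of all genes were. At 1.5-fold, 7 of the 91 list genes were higher and 6 lower with JQ1+, where 6.2% and 12.9% of all genes were. With flavopiridol 8 list genes were higher and 0 lower, where 12.5% and 7.7% of all genes were. Between the drugs 2 list genes were higher and 12 lower in JQ1+. There 819 of the 14790 measured genes were higher and 21.2% were lower. From counts in place of RPKM, which favours long genes, Ccnd2 took 88.3% of the D-type cyclins in JQ1+, 92.6% in flavopiridol and 88.6% in DMSO. Cdk4 took 73.7%, 75.7% and 71.9% of the kinases in the same order of libraries, and Ccne1 52.9%, 45.6% and 45.8% of the E-type cyclins, so Ccne1 led Ccne2 only in JQ1+ by counts. No paired analysis was possible because each treatment had 1 library. Depth limits Ccnd1 most, with at most 152 counts.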
